A study of Rattus norvegicus with 6 samples.

Results

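Rybp and the Polycomb group genes were described in cultured newborn rat ovaries. The members were the 9 genes Rybp, Ring1, Rnf2, Yy1, Bmi1, Ezh2, Eed, Suz12 and Cbx2, taken where a probe set of the array carried that symbol and no other. Of the 9 genes, 8 had a probe set, each of them a single one, out of 27342 probe sets on the array and 15097 with 1 symbol. Suz12 had no probe set under this rule. Rybp was chosen because the study had named it among the genes that differed between the groups compared here. Its values are therefore a description, and no test is given for Rybp. The other members were chosen by name as Polycomb group genes or binding partners of RYBP, with earlier results of these data known.

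Polycomb group proteins keep genes silent through marks on histones. Polycomb repressive complex 1 (PRC1) adds ubiquitin to histone H2A through the ligases RING1 and RNF2, and Polycomb repressive complex 2 (PRC2) methylates histone H3 at lysine 27 through EZH2 or EZH1. Canonical forms of PRC1 hold a chromobox protein that reads the PRC2 mark, while variant forms hold RYBP or its relative YAF2 in place of it. RYBP was named for its binding to RING1 and YY1, and it also binds death effector proteins of apoptosis. In fetal germ cells PRC1 is known to restrain the genes of meiosis until their proper time.

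The 6 samples were ovaries of 0-day-old female Sprague-Dawley rats in organ culture, 3 control samples without treatment and 3 samples with human connective tissue growth factor (CTGF) at 500 ng/ml, all for 24 h. Each sample pooled 2 or 3 whole ovaries of littermates, and each of 3 organ culture date batches gave 1 control and 1 CTGF sample. Whole ovaries hold germ cells and several kinds of somatic cell, so fewer cells of a type and less RNA per cell cannot be told apart. The deposited values are log2 signals of the RMA method. The array medians lay between 5.82 and 5.84, and were taken after that processing. In each probe set the 3 batches had equal means of their 2 arrays, to within 0.005, which means that differences between batches had been taken out before deposit. Control and CTGF values of a batch therefore mirror each other, and for a gene that has 1 direction in all 3 batches the groups do not overlap. The SD given below for a group leaves out the differences between batches and understates the spread between samples. For the same reason the control SD and the CTGF SD of a gene are not independent of each other.

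The labelled tissue was checked on marker genes. All 7 measured germ cell and oocyte markers, among them Ddx4, Dazl and Zp3, and all 6 measured pre-granulosa markers, among them Wt1 and Amhr2, had signals above the 95th percentile of 43 genes of other organs, which was 49.1 on the un-logged scale. All 8 measured members also lay above this level. Of the 4 mesonephros markers 0 lay above it, but Umod among them is also one of the 43 genes that set the level, so nothing is read from Umod. Above the level were also 1 of 2 endothelial, 4 of 5 macrophage, 3 of 4 stromal and smooth muscle and 1 of 2 red blood cell markers. Probe sets differ in how well they bind, so the signals below are compared between groups and not between genes.

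Rybp was the member with the largest difference. Its log2 signals were 8.32, 8.37 and 8.42 in the control ovaries of batches 1, 2 and 3, and 8.71, 8.66 and 8.61 in the CTGF ovaries of the same batches. All CTGF samples were above all control samples, beside 9.41% of all probe sets that were higher in all 3 batches. Nothing is read from this, because the p that chose Rybp favours like differences in the batches. The un-logged signal was 331.0 ± 11.5 over the control samples and 404.7 ± 14.0 over the CTGF samples (each SD, n = 3), a ratio of 1.22 and a difference of 73.7. The log2 difference was 0.39, 0.29 and 0.19 in the 3 batches, with a mean of 0.29 and an SD of 0.10. Of the 27342 probe sets, 84 had a mean difference at least as high, Rybp included.

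The methods of the study call a gene where the ratio was over 1.2 or under 0.83, the un-logged means differed by more than 10 and the unadjusted p was under 0.05. The gene list that the study printed also holds genes whose means differed by less than 10, so it does not follow these criteria throughout. With the p of limma, a linear model with the culture batch as a block, Rybp was the 1 of 8 members at these criteria, beside 0.435% of all probe sets, and nothing is read from this count because the criteria chose the gene. Rybp lies just inside the ratio, at 1.22. The next member below it was Ring1 at 1.11. Without batch 1 the ratio of Rybp was 1.18 and its log2 difference 0.24, which left 0 of 8 members at the criteria.

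**Figure D1:**
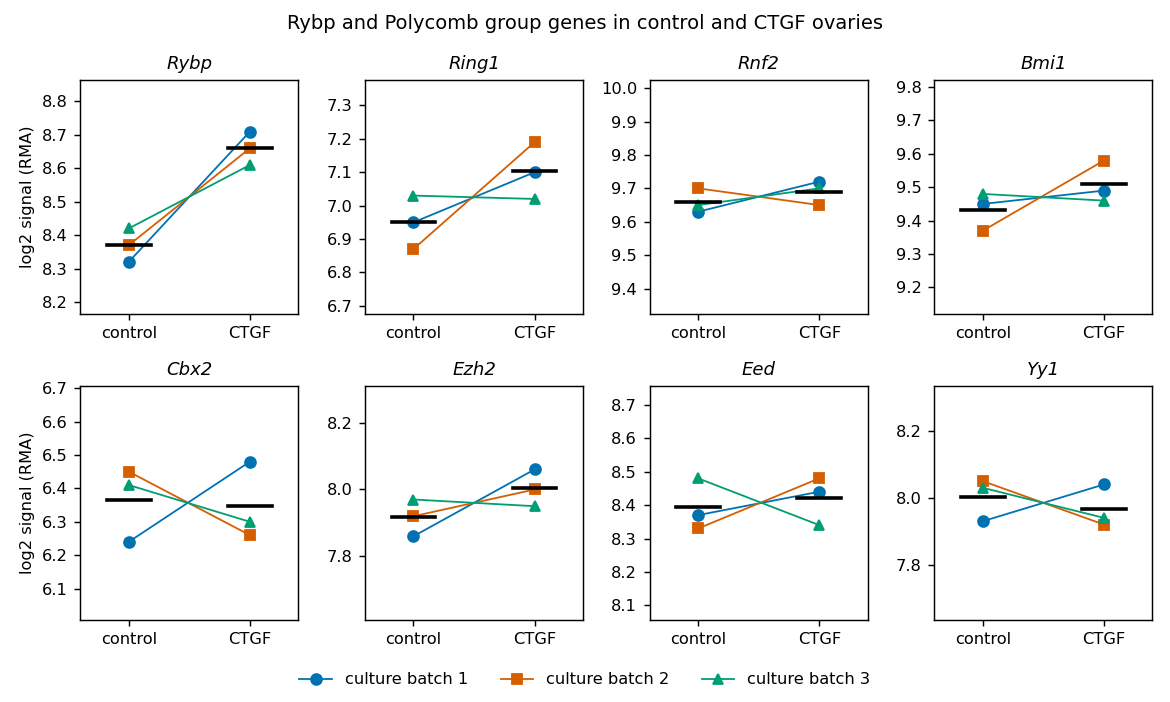
Log2 signal (vertical axes, each spanning the same range) of the 8 measured members in the control and CTGF arrays (horizontal axis), with circles for culture batch 1, squares for batch 2 and triangles for batch 3, lines joining the arrays of a batch and black bars for the means of 3 arrays. The Rybp arrays with CTGF lie between 8.61 and 8.71 and those of control ovaries between 8.32 and 8.42, while the groups of the other 7 members overlap. Over all probe sets the groups do not overlap in 20.3%.

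The other 7 members were tested with limma over all probe sets. After Benjamini-Hochberg adjustment 0 of them passed 0.05 (adjusted p = 0.994 for each), beside 0% of all probe sets. At an unadjusted p under 0.05 limma called 0 of the 7, beside 3.35% of all probe sets, and the methods' 2-way test, which fits each probe set alone, also called 0 of the 7, beside 4.2%. Their log2 differences lay between -0.04 and 0.15 with a median of 0.03, where the median of all probe sets was 0.00. Of the 7, 5 were above 0 and 2 below it, and over all probe sets 47.2% were above 0 and 51.1% below it. None of these 7 had 1 direction in all 3 batches, and with Rybp the count was 1 of 8, beside 20.3% of all probe sets. Values are given below with 95% confidence intervals of the limma fit, because a p over the threshold does not show that a gene was unaffected.

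Ring1 and Rnf2 encode the ubiquitin ligases of PRC1, which RYBP binds. The log2 signals of Ring1 were 6.95, 6.87 and 7.03 in control ovaries and 7.10, 7.19 and 7.02 with CTGF. The highest control sample lay above the lowest CTGF sample, both of them in batch 3, so the groups overlapped. The un-logged signal was 123.8 ± 6.86 over the control samples and 137.7 ± 8.13 over the CTGF samples (each SD, n = 3). The log2 difference was 0.15 (standard error 0.08, 95% interval -0.05 to 0.35), with 0.15, 0.32 and -0.01 in the 3 batches. It was the largest among the 7, and without batch 2 it was 0.07.

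Rnf2 had log2 signals of 9.63, 9.70 and 9.65 in control ovaries and 9.72, 9.65 and 9.70 with CTGF. Its groups overlapped across most of their range. The difference was 0.03 (standard error 0.07, 95% interval -0.13 to 0.19), and the SD of its 3 batch differences was 0.07, the smallest of the 8 members. The 2 ligase genes thus had a like direction in batch 1 only, at 0.15 and 0.09, and opposite signs in batch 2, at 0.32 and -0.05.

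Bmi1 and Cbx2 encode subunits of canonical PRC1, a Polycomb RING finger protein that supports the ligase and a chromobox protein that binds methylated histone H3. Bmi1 had log2 signals of 9.45, 9.37 and 9.48 in control ovaries and 9.49, 9.58 and 9.46 with CTGF. The samples of batch 2 were the lowest and the highest of the 6, without and with CTGF. The log2 difference was 0.08 (standard error 0.07, 95% interval -0.10 to 0.25), and without batch 2 it was 0.01. Cbx2 had log2 signals of 6.24, 6.45 and 6.41 in control ovaries and 6.48, 6.26 and 6.30 with CTGF. Batch 1 was higher with CTGF and batches 2 and 3 were lower, with differences of 0.24, -0.19 and -0.11. The mean was -0.02 (standard error 0.10, 95% interval -0.26 to 0.22), the widest interval of the 7.

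Ezh2, the histone methyltransferase of PRC2, had log2 signals of 7.86, 7.92 and 7.97 in control ovaries and 8.06, 8.00 and 7.95 with CTGF. The CTGF sample of batch 3 lay below the control sample of that batch, while batches 1 and 2 were higher with CTGF. The un-logged signal was 241.7 ± 9.21 over the control samples and 256.7 ± 9.82 over the CTGF samples (each SD, n = 3). The log2 difference was 0.09 (standard error 0.07, 95% interval -0.09 to 0.26). Eed, the PRC2 subunit that binds the methylated histone and activates the enzyme, had log2 signals of 8.37, 8.33 and 8.48 in control ovaries and 8.44, 8.48 and 8.34 with CTGF. Its groups covered nearly the same range. The difference was 0.03 (standard error 0.08, 95% interval -0.17 to 0.22), with 0.07, 0.15 and -0.14 in the 3 batches.

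Yy1, a zinc finger transcription factor that RYBP binds and that can bring Polycomb proteins to DNA, had log2 signals of 7.93, 8.05 and 8.03 in control ovaries and 8.04, 7.92 and 7.94 with CTGF. The CTGF sample was the higher one in batch 1 and the lower one in batches 2 and 3. The un-logged signal was 256.8 ± 11.3 over the control samples and 250.3 ± 11.3 over the CTGF samples (each SD, n = 3). The difference was -0.04 (standard error 0.08, 95% interval -0.22 to 0.15). Of the 2 proteins that gave RYBP its name, the RING1 gene was thus above 0 in 2 of 3 batches and the YY1 gene in 1 of 3.

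**Figure D2:**
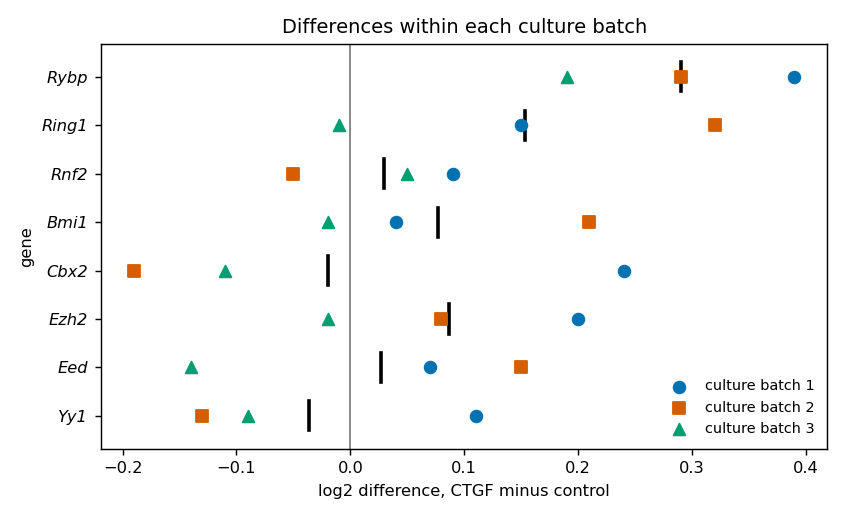
CTGF minus control log2 signal (horizontal axis) of each member (vertical axis), with circles for culture batch 1, squares for batch 2, triangles for batch 3 and a black bar for the mean. The 3 points of Rybp lie between 0.19 and 0.39, and each other member has points on both sides of 0.

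The differences of the members shifted from batch to batch. In batch 1 all of the 7 members other than Rybp were above 0, with a median difference of 0.11. In batch 2, 4 were above and 3 below 0, with a median of 0.08. In batch 3, 1 was above and 6 below 0, with a median of -0.02. The medians over all probe sets were 0.00, -0.01 and 0.00 in the same batches. Rybp also had its highest difference in batch 1 and its lowest in batch 3. These counts rest on small differences, and with quantile normalization Ring1 was 0.02 and Ezh2 0.01 in batch 3, so that 3 members had 1 direction in all batches beside 21.9% of all probe sets. With the array medians centred, Ring1 was 0.01 and Ezh2 0.00 in that batch, and the count was 2 beside 20.4%.

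The spread of the batch differences was compared with that of all probe sets. The SD of the 3 differences was 0.10 for Rybp, which lay at percentile 39.3 of all probe sets, and the median over the array was 0.12. Nothing is read from the rank of Rybp, because the p that chose it depends on this SD and favours a small one. Among the other members the SD ran from 0.07 for Rnf2, at percentile 24.2, to 0.23 for Cbx2, at percentile 85.1. The SD of Ring1 was 0.17 and that of Ezh2 0.11. The other members were thus found on both sides of the median spread of the array.

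**Figure D3:**
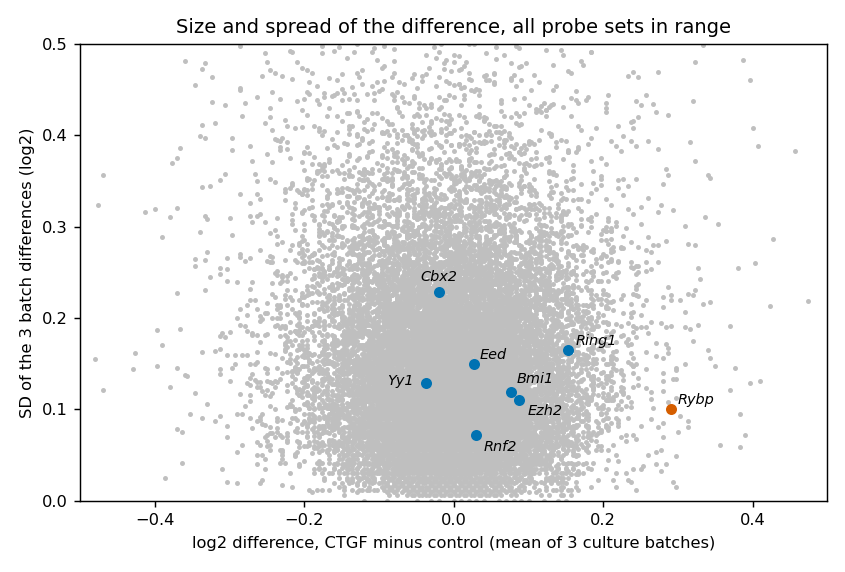
SD of the 3 batch differences (vertical axis, log2) against the mean CTGF minus control log2 difference (horizontal axis) for those probe sets within the plotted range (grey points), with Rybp in orange and the other 7 members in blue. Rybp lies at 0.29 with an SD of 0.10, and the other members lie between -0.04 and 0.15.

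Other subunits of the complexes were taken from gene lists. Of 44 listed genes of PRC1 and PRC2 outside the members, 34 had a probe set. Of these, 19 were above 0, 13 below 0 and 2 at 0, with a median log2 difference of 0.02. In limma 0 of the 34 passed after adjustment, and 1, Phf19, had an unadjusted p under 0.05, beside 3.35% of all probe sets. The highest of the 34 was at 0.17 and the lowest at -0.20. Of the 34, 5 had 1 direction in all 3 batches, beside 20.3% of all probe sets.

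Yaf2, the closest relative of Rybp and its alternative in variant PRC1, had log2 signals of 8.21, 8.30 and 8.21 in control ovaries and 8.23, 8.14 and 8.23 with CTGF. Its un-logged signal was 302.5 ± 11.0 over the control samples and 294.2 ± 10.5 over the CTGF samples (each SD, n = 3). The log2 difference was -0.04 (standard error 0.07). By batch it was 0.02, -0.16 and 0.02, where Rybp had 0.39, 0.29 and 0.19. Yaf2 was thus close to 0 in batches 1 and 3 and below 0 in batch 2. The difference between these genes was not tested, because Rybp was chosen for its value.

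Of 17 measured genes of variant PRC1, 11 were above 0, 5 below 0 and 1 at 0, with a median of 0.02. Those with the smallest p were Usp7, Pcgf3 and Pcgf6. Usp7, a deubiquitinase found with variant PRC1, had a signal of 1311 ± 19.0 over the control samples and 1425 ± 22.7 over the CTGF samples (each SD, n = 3), with log2 differences of 0.14, 0.15 and 0.07 in the 3 batches. Its groups did not overlap, beside 20.3% of all probe sets, and the mean was 0.12 (standard error 0.06, adjusted p = 0.994 in limma). Pcgf3 and Pcgf6, which encode Polycomb RING finger proteins of variant complexes, had 0.13 (standard error 0.07) and 0.12 (standard error 0.07). L3mbtl2, a member of the same complex as Pcgf6, had -0.11 (standard error 0.07) and was below 0 in all 3 batches.

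Of 9 measured genes of canonical PRC1, 5 were above 0 and 4 below, with a median of 0.04. Cbx8, a chromobox gene like Cbx2, had a signal of 58.8 ± 4.93 over the control samples and 51.2 ± 4.61 over the CTGF samples (each SD, n = 3). Its log2 differences were -0.35, 0.09 and -0.34 in the 3 batches, so batch 2 went the other way. Scml4 had a mean of 0.17 (standard error 0.10), with 0.45 in batch 3 and 0.10 and -0.03 in the others, and the polyhomeotic gene Phc2 one of 0.10 (standard error 0.07). Pcgf2, the closest relative of Bmi1, had a mean of 0.00 (standard error 0.07) beside 0.08 for Bmi1.

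Of 8 measured PRC2 subunits and partners, 3 were above 0, 4 below and 1 at 0, with a median of 0.00. Phf19, which guides PRC2 to chromatin, was lower with CTGF in all 3 batches, with differences of -0.20, -0.10 and -0.28. Its signal was 40.4 ± 1.26 over the control samples and 35.4 ± 1.11 over the CTGF samples (each SD, n = 3), both below the level of 49.1 set by the genes of other organs. The mean was -0.19 (standard error 0.07, unadjusted p = 0.0297 and adjusted p = 0.994 in limma). Ezh1, the other methyltransferase of PRC2, had -0.04 (standard error 0.08), with -0.16, -0.10 and 0.15 in the 3 batches, where Ezh2 had 0.20, 0.08 and -0.02. Aebp2, a cofactor of the complex, had 0.05 (standard error 0.07).

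**Figure D4:**
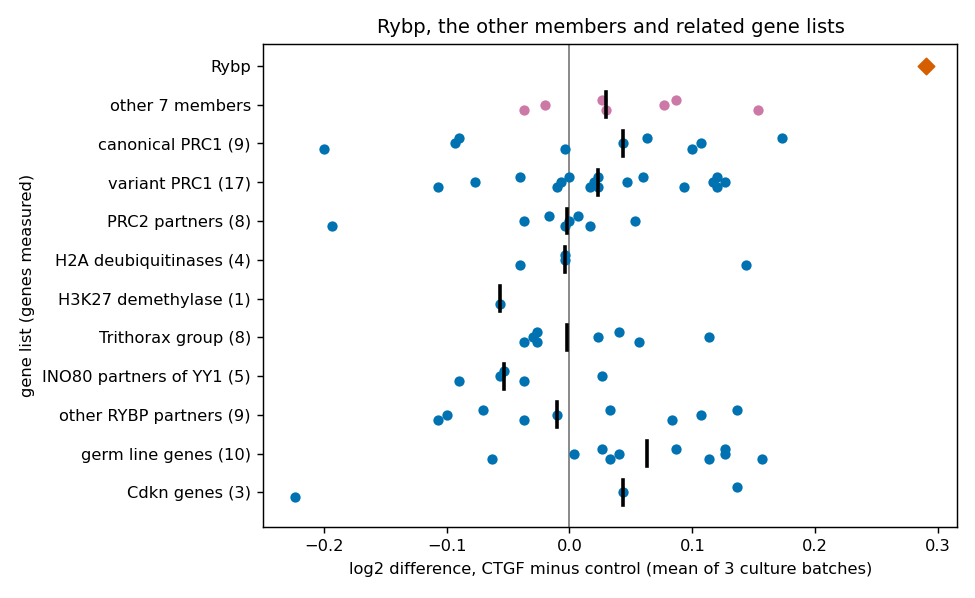
CTGF minus control log2 signal (horizontal axis, mean of 3 culture batches) for Rybp, the other 7 members and the measured genes of 10 related lists (vertical axis, number of genes in brackets), with each list's median as a black bar. Rybp lies at 0.29, and the list medians lie between -0.06 and 0.06.

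Enzymes that oppose Polycomb were examined in the same way. Of 4 measured genes of H2A deubiquitination, 1 was above 0 and 3 below, with a median of 0.00. Bap1, which removes ubiquitin from H2A, had a signal of 452.0 ± 3.13 over the control samples and 439.6 ± 3.05 over the CTGF samples (each SD, n = 3). Its log2 difference was -0.04 (standard error 0.06). Foxk1, a forkhead partner of BAP1, had 0.14 (standard error 0.10), with 0.43 in batch 3 and -0.01 and 0.01 in the others, and the deubiquitinase Usp21 had 0.00 (standard error 0.06). Kdm6b, which removes the PRC2 mark, had -0.06 (standard error 0.08). Of 8 measured genes listed for the Trithorax group, which keeps genes active, 4 were above 0 and 4 below, with a median of 0.00. Cxxc1, which binds unmethylated CpG for a methyltransferase of histone H3 at lysine 4, had 0.11 (standard error 0.06). It had 0.14, 0.12 and 0.08 in the 3 batches. Men1 had 0.06 (standard error 0.07) and Kmt2e 0.04 (standard error 0.07). No gene of these lists passed in limma after adjustment (adjusted p = 0.994), and at an unadjusted p under 0.05 there were 0, beside 3.35% of all probe sets.

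Partners of YY1 and RYBP outside Polycomb were also examined. Of 5 measured genes of the INO80 complex, a chromatin remodeller that YY1 joins, 1 was above 0 and 4 below, with a median of -0.05. Nfrkb had -0.09 (standard error 0.08), Ruvbl1 -0.06 (standard error 0.06) and Actr5 -0.05 (standard error 0.08). The mean signals of Actr5, 46.8 in control and 45.1 in CTGF samples, lay below the level of 49.1 set by the genes of other organs. Of 9 measured genes of other proteins that RYBP is reported to bind or act with, 4 were above 0 and 5 below, with a median of -0.01. Casp8, the caspase of death receptor signaling, had a signal of 139.2 ± 5.34 over the control samples and 129.3 ± 5.51 over the CTGF samples (each SD, n = 3), a log2 difference of -0.11 (standard error 0.07). Fadd, its adaptor, had -0.01 (standard error 0.07). Dedd, a death effector domain protein, had 0.09, 0.09 and 0.07 in the 3 batches, and Ift57 0.15, -0.09 and 0.35. Mdm2, the ligase that degrades p53 and that RYBP binds, had 0.11 (standard error 0.08). In both lists 0 genes passed in limma after adjustment, beside 0% of all probe sets, and 0 had an unadjusted p under 0.05, beside 3.35%.

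Genes known as targets of Polycomb were taken from a pair of lists. Of 14 germ line genes that variant PRC1 restrains in other cells, 10 had a probe set, and all 10 lay above the level of the genes of other organs. Of these, 9 were above 0 and 1 below, beside 47.2% and 51.1% of all probe sets, with a median of 0.06 that was 0.23 without batch 2 and -0.04 without batch 3. In all 3 batches 0 had 1 direction, beside 20.3%. Sycp3, of the synaptonemal complex of meiosis, had log2 signals of 9.32, 9.69 and 9.26 in control ovaries and 9.69, 9.31 and 9.74 with CTGF. Its differences were 0.37, -0.38 and 0.48, so batch 2 was opposite to the others. Stag3, a meiotic cohesin, had 0.24, -0.25 and 0.39, and Mael, which acts in the silencing of transposons, 0.20, -0.18 and 0.36. The median of the 10 genes was 0.20, -0.26 and 0.27 in the 3 batches.

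All of the 10 germ line genes were below 0 in batch 2 and above 0 in batches 1 and 3. Rybp was at 0.29 in batch 2, and nothing is read from this because Rybp was chosen by a p with the batch as a block, which favours like differences in the batches. The summed signal of the germ line genes ran from 8798 to 10690 over the control samples and from 8856 to 10780 over the CTGF samples. The 3 genes Ddx4, Dazl and Sycp3 of this list are also germ cell markers here. The part of germ cell content in the values of the members was not tested.

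**Figure D5:**
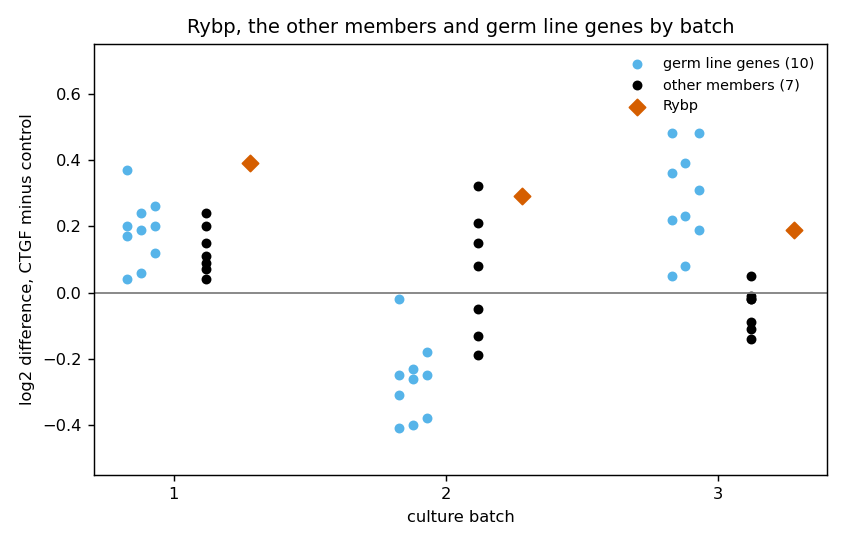
CTGF minus control log2 signal (vertical axis) in each culture batch (horizontal axis) for 10 germ line genes (blue points), the 7 members other than Rybp (black points) and Rybp (orange diamonds). The germ line genes lie above 0 in batches 1 and 3 and below 0 in batch 2, and Rybp lies at 0.39, 0.29 and 0.19.

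Of 3 cell cycle inhibitor genes that Polycomb is known to silence, Cdkn1c was lower with CTGF in all 3 batches. Its log2 signals were 8.02, 7.96 and 7.96 in control ovaries and 7.72, 7.77 and 7.78 with CTGF. The un-logged signal was 252.5 ± 6.11 over the control samples and 216.3 ± 4.79 over the CTGF samples (each SD, n = 3). The log2 difference was -0.22 (standard error 0.07, unadjusted p = 0.0139 and adjusted p = 0.994 in limma), so the gene did not pass. It was the 1 of 3 genes with 1 direction in all 3 batches, beside 20.3% of all probe sets. It was also the 1 of 3 with an unadjusted p under 0.05 in limma, beside 3.35%. Cdkn2b had -0.03, 0.21 and 0.23 in the 3 batches, with a mean of 0.14 (standard error 0.08). Cdkn2a, the best known Polycomb target in growth control, had signals of 13.7 ± 0.485 over the control samples and 14.1 ± 0.548 over the CTGF samples (each SD, n = 3), below the median of 20.9 of the genes of other organs.

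The genes most like Rybp were taken by the mean absolute distance between their 3 batch differences and those of Rybp, among 4000 probe sets with 1 symbol and a mean log2 signal within 1 of that of Rybp. The nearest were Htr1b, a serotonin receptor, at a distance of 0.08, and Cenpn, a kinetochore protein, Trim26 and Lcn2, an iron-siderophore carrier, each at 0.09. Arhgap20 was the fifth, also at 0.09. Trim26 had 0.23, 0.25 and 0.25 in the 3 batches, and Cenpn 0.29, 0.19 and 0.13. Among the members the nearest was Ring1 at 0.16 and the farthest was Yy1 at 0.33. The likeness rests on 3 differences and describes the values only.

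The promoters of the members were examined for CpG, the dinucleotide that recruits variant PRC1 through KDM2B. Windows of 250 bases before the transcription start were taken from RefSeq (GRCr8), and 7 of the 9 members had one. Rybp and Cbx2 had no window and are not part of what follows. The windows of the 7 members held 12 to 33 CpG, beside a median of 8 over 21851 windows of protein coding genes. Suz12 had the most with 33. Among the measured members with a window Ring1 had the most with 31 and Eed the fewest with 12. Both are shown 5′ to 3′ on their own strand, with each CpG in capitals, to give the range. The Ring1 window lies on the plus strand at chr20:4831763-4832012 and the Eed window on the minus strand at chr1:153307501-153307750.
Ring1: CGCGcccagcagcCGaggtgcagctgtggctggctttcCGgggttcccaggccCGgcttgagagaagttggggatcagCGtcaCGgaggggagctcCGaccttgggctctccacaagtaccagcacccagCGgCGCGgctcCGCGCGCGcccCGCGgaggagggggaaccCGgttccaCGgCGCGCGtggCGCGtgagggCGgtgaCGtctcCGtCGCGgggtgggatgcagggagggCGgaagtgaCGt
Eed: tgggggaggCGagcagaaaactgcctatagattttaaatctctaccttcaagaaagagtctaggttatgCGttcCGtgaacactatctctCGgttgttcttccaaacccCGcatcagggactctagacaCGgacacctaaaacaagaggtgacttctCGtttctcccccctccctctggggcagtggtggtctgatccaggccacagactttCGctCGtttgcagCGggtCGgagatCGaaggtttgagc
Yy1 had 30 CpG, Rnf2 27, Ezh2 23 and Bmi1 13. These 7 members thus ranged from percentile 61.0 of all windows for Eed to percentile 96.2 for Suz12, and the GC content of their windows from 52.0% to 72.8%. The array measures transcripts only, so no mark or binding at these windows was measured here.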

How the data were processed

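Transcripts were measured on Affymetrix Rat Gene 1.0 ST arrays. The authors used Partek and its GC-adjusted RMA to give every probe set 1 value, and these deposited log2 values cover 27342 probe sets. Depth on arrays is not a count, so precision is limited by the number of arrays. Differences between culture batches had been taken out before deposit, a step the methods do not describe, so 2 residual degrees of freedom are left. The culture batch pairs the samples, per the labels, and is a block in the main fit, as in the methods.

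Differences were fitted with the lmFit and eBayes functions of limma 3.58.1 (R 4.3.3, no filter, Benjamini-Hochberg adjustment over all probe sets) and tested on simulated data. The prior degrees of freedom were 4.22. Of 15097 probe sets with 1 symbol, 15067 matched RefSeq (GRCr8) by Entrez number. For listed genes with several probe sets the one with the highest mean signal was used. Named genes are the members, the relatives Yaf2, Ezh1 and Pcgf2, the up to 3 genes of each list with the smallest p, and the 5 most like Rybp. L3mbtl2, Fadd, Mdm2, Ddx4, Dazl, Zp3, Gdf9, Col1a1, Wt1 and Amhr2 were named outside this rule, after their values were seen. Max, Rbbp4, Cbx3 and Rbbp5 were also named outside it, because each had a second probe set. The members and lists were chosen with earlier results of these data known. Other settings tried were no batch term, each replicate left out, quantile normalization, centred medians, a signal filter, trend and robust moderation, the methods' 2-way test without moderation and no minimum difference.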

Additional observations from a re-analysis of the deposited data

How the results depend on the processing

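With no replicate block, limma called 4415 probe sets at an unadjusted p under 0.05 in place of 915, and the count of members rose to 2 from 1 with Ring1 added to Rybp, for which no test is read, but this fit counts degrees of freedom that the batch step had removed. After adjustment 0 probe sets and 0 members passed 0.05 in every setting, limma and the methods' 2-way test included. Members at the study's criteria numbered 0 to 1 with 1 replicate left out. The 1 was Rybp, which these criteria chose, so nothing is read from this count. Members with 1 direction in all batches were 3 with quantile normalization, beside 21.9% of all probe sets. With centred array medians they were 2, beside 20.4%, in place of 1 in the main setting, beside 20.3%. The log2 difference of Rybp ranged from 0.24 to 0.34 with 1 replicate left out and kept its sign in all alternatives. With all 3 batch differences above 0, leaving out a replicate could not turn the sign of Rybp. Nothing is read from this, because Rybp was chosen from the same contrast. With 1 replicate left out the sign turned for Yy1, which ranged from -0.11 to 0.01, Eed, from -0.035 to 0.11, and Cbx2, from -0.15 to 0.065, while Ring1 ranged from 0.07 to 0.24, Bmi1 from 0.01 to 0.13, Ezh2 from 0.03 to 0.14 and Rnf2 from 0.00 to 0.07. The list median of variant PRC1 ranged from 0.00 to 0.06 and that of the H2A deubiquitinases from -0.01 to 0.0075, the latter at 0.01 with centred medians. The germ line median ranged from -0.04 to 0.23 and that of the classic targets from -0.02 to 0.09, and the latter was -0.04 with the signal filter, which leaves 2 of its 3 genes. Some of these shifts left the range of the batch medians, which was -0.02 to 0.05 for variant PRC1 and -0.015 to 0.005 for the H2A deubiquitinases. The PRC2 and INO80 lists also left their range with 1 replicate left out, and the other lists stayed within theirs. The cause of these shifts was not tested. Array intensities before RMA were not used here, and 3 pairs limit the precision of every value.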

Other observations

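Several genes of the lists had a second probe set. Max had 0.02 (standard error 0.07) and -0.02 (standard error 0.08) in its 2 probe sets, Rbbp4 -0.01 and 0.00, Cbx3 -0.01 and -0.06, and Rbbp5 -0.03 and -0.10, as log2 differences between CTGF and control ovaries. The 7 measured germ cell and oocyte markers had a median of 0.03, and 2 of them had 1 direction in all 3 batches, beside 20.3% of all probe sets. These were Kit, the receptor of oocytes, with 0.12, 0.15 and 0.31 in the 3 batches, and Lhx8, an oocyte transcription factor, with 0.04, 0.08 and 0.34, while Ddx4, Dazl and Sycp3 were below 0 in batch 2 and Zp3 and Gdf9 in batch 1. Of the 6 measured pre-granulosa markers 0 had 1 direction, and their batch medians were -0.14, 0.07 and 0.11. Kitlg, the ligand of Kit, had 0.14, 0.32 and -0.04, and Fst, an activin-binding protein, -0.36, 0.04 and 0.13. The 4 measured stromal and smooth muscle markers had batch medians of 0.12, 0.13 and -0.53, with Pdgfra, a receptor of stromal cells, at 0.11, -0.14 and -1.03. In batch 3 the collagen genes Col1a1 and Col1a2 were at -0.56 and -0.50 and the smooth muscle gene Myh11 at 0.03. Myh11 had mean signals of 43.2 in control and 48.0 in CTGF samples, below the level of 49.1 set by the genes of other organs. The summed signal of the 4 stromal and smooth muscle markers ran from 2185 to 2931 in control samples and from 1951 to 2614 with CTGF. The macrophage markers had batch medians of -0.06, -0.10 and 0.00. In batch 3, 3 of the 4 stromal and smooth muscle markers were below 0. The endothelial and mesonephros markers also had medians below 0 there, at -0.14 and -0.04. The germ cell, pre-granulosa and red blood cell medians were above 0. Of the 7 members other than Rybp, 6 were below 0 in batch 3, Ring1 at -0.01 and Bmi1 and Ezh2 at -0.02. With quantile normalization Ring1 and Ezh2 were above 0 there. The part of stromal content in those values was not tested. None of the list genes and markers named here passed in limma after adjustment (adjusted p of 0.994 or higher).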
